A study of Mus musculus with 16 samples.

Results

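Adding Tead4 double-stranded RNA (dsRNA) to mouse embryos that were also depleted of Tfap2c was examined in 8 of the 16 RNA-seq libraries of the study, 4 from the double knockdown and 4 from the Tfap2c knockdown. The libraries were taken by their labels. The double knockdown embryos had received dsRNA against both Tfap2c and Tead4 at the zygote stage, and the Tfap2c knockdown embryos had received dsRNA against Tfap2c, so both groups carry the Tfap2c depletion and differ by the Tead4 dsRNA. The Tead4 knockdown (Tead4 dsRNA alone) and the GFP control (dsRNA against GFP, which embryos lack), with 4 libraries each, gave the effect of the same dsRNA without Tfap2c depletion. Embryos were collected at the 8-cell stage, and each library was a pool of 10 embryos, about 80 cells. In each group 2 libraries, A1 and A2, came from mothers labelled C57BL/6J×CBA/J (cross A) and 2, B1 and B2, from mothers labelled C57BL/6J×DBA/2J (cross B). The fathers are labelled C57BL/6J×DBA with a substrain number that goes up from library to library, so the paternal substrain is not certain. Neither the dsRNA doses nor whether the total dose was matched between groups is given in the sources used here. The labels do not say that the pools of a group came from separate collections, so the p-values below speak for the spread among these pools, which may be technical.

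TEAD4 is a DNA-binding protein that activates genes mainly when it is joined by the coactivators YAP or TAZ, which the kinases LATS1 and LATS2 of the Hippo pathway keep out of the nucleus. In the mouse embryo it is needed for trophectoderm, the outer epithelium that forms the placenta. TFAP2C (AP-2 gamma) is a second trophectoderm regulator, active already before the blastocyst.

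Values are FPKM, a level per gene length and library size. Changes are differences of mean log2(FPKM + 1), which understate the change of low genes, and the libraries of a group are given in the order A1, A2, B1 and B2. Tests used limma with group and cross in the model, over the 11422 genes that reached 1 FPKM in 4 or more of the 16 libraries. A gene passed where its p, adjusted by Benjamini-Hochberg over all of these, was under 0.05.

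The 2 stretches below are the 250 bases before the annotated start of Amotl2 (chr9:102717554-102717803, plus strand, a start inside the annotated gene) and of Abcb1a (chr5:8566841-8567090, plus strand). They are shown because these genes fell with Tead4 dsRNA and hold the letters of the TEAD recognition element, GGAATG on either strand, marked in capitals. Of the 12 genes that fell in the double knockdown, 10 have such a window, and these 2 alone hold a match. Sequences are from RefSeq (GRCm38.p6).
Amotl2: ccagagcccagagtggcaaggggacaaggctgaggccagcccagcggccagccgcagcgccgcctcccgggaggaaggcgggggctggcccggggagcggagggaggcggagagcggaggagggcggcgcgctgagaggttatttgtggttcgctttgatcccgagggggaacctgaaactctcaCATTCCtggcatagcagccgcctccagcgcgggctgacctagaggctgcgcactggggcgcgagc
Abcb1a: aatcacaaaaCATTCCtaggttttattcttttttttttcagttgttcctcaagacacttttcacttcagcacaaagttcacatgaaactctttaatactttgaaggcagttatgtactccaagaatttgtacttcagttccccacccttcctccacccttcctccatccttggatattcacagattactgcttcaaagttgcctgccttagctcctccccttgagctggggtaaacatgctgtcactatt
The match begins 65 bases before the start in Amotl2 and 240 bases before it in Abcb1a, on the minus strand in both, and no AP-2 match (GCCNNNGGC) lies in either window. Of all 32851 windows of the same length in the table, 12.6% hold GGAATG, so a match is common and only describes these letters.

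The library labels were checked on the targeted genes. Tead4 (chr6, 128227143 to 128300813, GRCm38.p6) stood at 8.17, 5.40, 9.62 and 14.8 FPKM in the double knockdown, against 19.003, 25.9, 37.4 and 30.8 FPKM in the Tfap2c knockdown. Every double knockdown library lay below every Tfap2c knockdown library, and double knockdown B2 held the most Tead4 of its group. Tead4 fell by 1.52 on the log2 scale (limma, adjusted p = 0.0257), to a mean 33.6% of the Tfap2c knockdown level, and an exact two-sided permutation test gave p = 0.0286, the smallest that 4 against 4 allows. Tead4 no longer passed without double knockdown A1, A2 or B1 or without Tfap2c knockdown A2, B1 or B2, with a limma adjusted p of at most 0.0796. In the Tead4 knockdown it averaged 7.66 ± 2.49 FPKM, against 48.6 ± 7.00 FPKM in the GFP control (SD, n = 4 each). The Tead4 transcript level was thus similar in both groups given Tead4 dsRNA, while the level it was compared with was lower in the Tfap2c knockdown than in the GFP control.

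Tfap2c averaged 16.2 ± 0.342 FPKM in the double knockdown and 15.8 ± 1.65 FPKM in the Tfap2c knockdown, with overlapping libraries (SD, n = 4 each). The log2 difference was 0.03, with a 95% interval of -0.21 to 0.28 (limma adjusted p = 0.954). Without Tfap2c dsRNA it averaged 34.8 ± 1.67 FPKM in the Tead4 knockdown and 35.7 ± 6.60 FPKM in the GFP control (SD, n = 4 each). The depletion shared by the double and the Tfap2c knockdown was therefore partial at the transcript level and close in size.

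Summed FPKM per library ran between 799260 and 874440 over the 16 libraries, and relative depth estimated from low values between 0.898 and 1.105. The number of genes at 1 FPKM or more (exact permutation p = 1) and the mitochondrially encoded share of FPKM (exact permutation p = 0.429) did not separate the double from the Tfap2c knockdown. Among the defining markers of other cells, Has2 (cumulus), Hbb-bs (blood) and Dcn (fibroblasts) were at 0 in all 8 libraries. Over whole marker lists, summed FPKM in the double and in the Tfap2c knockdown libraries ran between 19.9 and 25.9 and between 21.4 and 30.2 for 18 cumulus genes, between 27.6 and 68.8 and between 45.3 and 63.3 for 15 sperm genes, between 40.7 and 77.7 and between 29.3 and 63.0 for 8 blood genes, and between 2.53 and 5.28 and between 1.38 and 4.84 for 10 fibroblast genes, overlapping in each. The embryo marker Dppa5a was at 3686 FPKM or more in every double knockdown library and at 4131 FPKM or more in every Tfap2c knockdown library, while Zscan10, which the embryo list also holds, was low, at up to 1.18 and up to 1.14 FPKM. In a principal component analysis of all 16 libraries, double knockdown B2 stood apart from the other 7 libraries, at -0.49 on the first component against values between -40.0 and -16.4. The Tead4 knockdown and GFP control libraries lay between 11.9 and 43.7 on it, so B2 was the nearest of the 8 to them.

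Few genes passed. Of 11422 genes, 16 (0.14%) differed, 4 higher (0.035%) and 12 lower (0.105%) in the double knockdown, and 1087 (9.52%) had an unadjusted p under 0.05, 493 higher (4.32%) and 594 lower (5.2%). All 4 double knockdown libraries lay above all 4 Tfap2c knockdown libraries for 158 genes (1.38%) and below them for 229 (2%). With median-ratio rescaling the split was 5 higher and 9 lower, and with quantile normalization 5 higher and 10 lower. The same dsRNA without Tfap2c depletion gave 700 genes (6.13%), 383 higher (3.35%) and 317 lower (2.78%) in the Tead4 knockdown than in the GFP control, and 2415 (21.1%) at an unadjusted p under 0.05. That split was 261 higher and 419 lower with median-ratio rescaling and 288 higher and 396 lower with quantile normalization. The median absolute log2 change was 0.13 for the double minus the Tfap2c knockdown and 0.17 for the Tead4 knockdown minus the GFP control. All 16 libraries set the spread in these fits. With only the libraries of the double and the Tfap2c knockdown in the fit, Amotl2 alone of the 16 genes still passed. The count of 16 depended on single libraries. It was 1 without double knockdown A2 or Tfap2c knockdown A2, 8 without double knockdown A1 or Tfap2c knockdown A1, 6 without double knockdown B1 or Tfap2c knockdown B2, 5 without Tfap2c knockdown B1, 10 without double knockdown B2 and 9 without Tead4 knockdown A2. The 95% interval, not adjusted for the number of genes, reached 0.34 to either side of the estimate for the median gene. A change smaller than that on the log2 scale was mostly not detectable with these pools. Passing after adjustment took more, so larger changes could be missed as well. The smallest change that passed was 0.49, for Cdc16, whose standard error was 0.088 against a median of 0.16 over all genes. In bulk pools, fewer cells expressing a gene and less RNA per cell cannot be told apart.

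**Figure D1:**
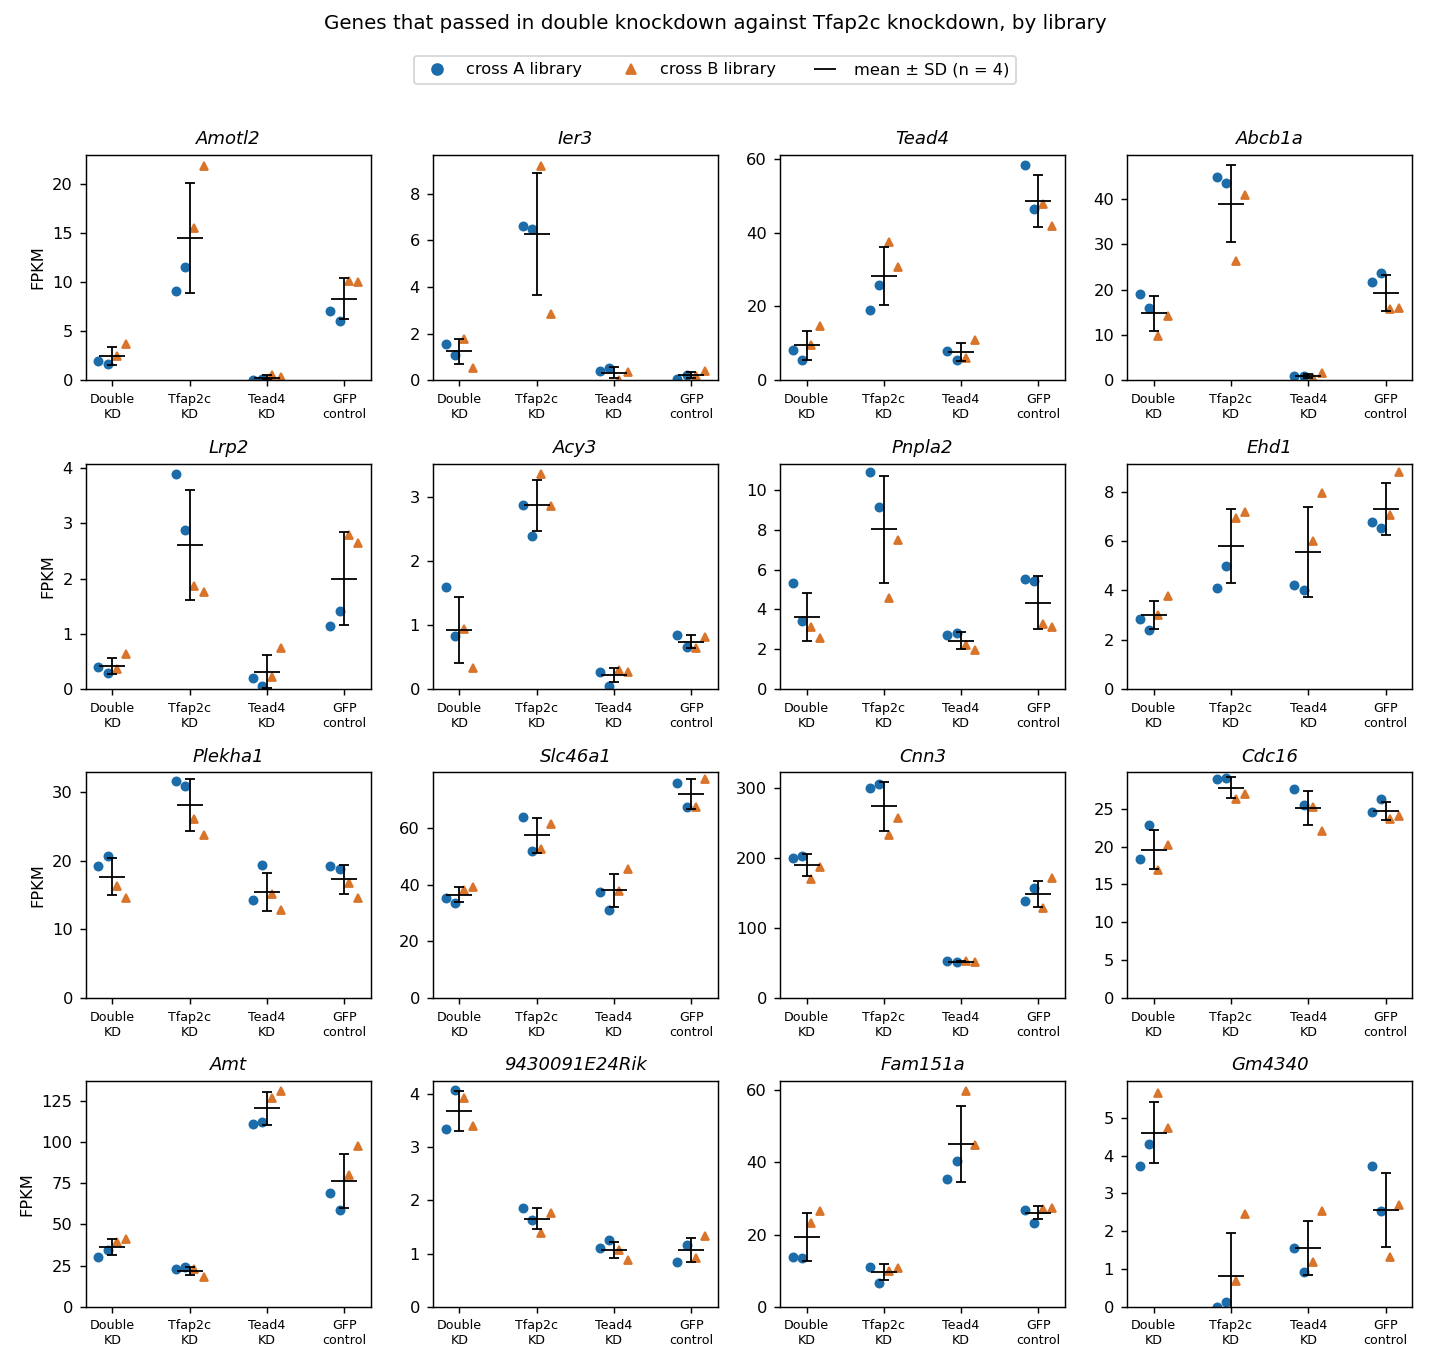
FPKM of the 16 genes that passed in the double knockdown against the Tfap2c knockdown, one panel each, with a point for every library of the 4 groups (circles cross A, triangles cross B) and the mean ± SD (n = 4, bars cut at 0). Amotl2, Tead4, Abcb1a and Cnn3 are low in both groups given Tead4 dsRNA relative to their own comparison group, whereas Ier3 is above 2 FPKM in the Tfap2c knockdown libraries alone.

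Amotl2, an angiomotin that binds YAP at cell junctions and whose gene is itself a YAP and TEAD target, changed most firmly. Amotl2 (chr9, 102717091 to 102733418) stood at 1.99, 1.68, 2.49 and 3.70 FPKM in the double knockdown, against 9.03, 11.5, 15.4 and 21.8 FPKM in the Tfap2c knockdown. All 4 double knockdown libraries were far below the lowest Tfap2c knockdown library, in both crosses. Amotl2 fell by 2.12 on the log2 scale (95% interval -2.43 to -1.81, limma adjusted p = 4.0e-06), to 17.1% of the Tfap2c knockdown level. It passed in all 12 alternative settings and all 16 fits that left out a library, which held for no other gene of the 16. In the Tead4 knockdown it averaged 0.254 ± 0.237 FPKM, against 8.27 ± 2.09 FPKM in the GFP control (SD, n = 4 each). The log2 change there was -2.88, and the difference of 0.76 between the changes did not pass (limma adjusted p = 0.114).

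Abcb1a encodes P-glycoprotein, an efflux pump of the plasma membrane. Abcb1a (chr5, 8567091 to 8748575) had 19.1, 15.9, 9.81 and 14.3 FPKM in the double knockdown, against 44.8, 43.6, 26.4 and 40.8 FPKM in the Tfap2c knockdown. No libraries of the groups overlapped. It fell by 1.34 on the log2 scale (limma adjusted p = 0.0150), and did not pass without double knockdown A2 or Tfap2c knockdown A2 (adjusted p at most 0.0796). In the Tead4 knockdown it averaged 1.01 ± 0.466 FPKM, against 19.3 ± 4.04 FPKM in the GFP control (SD, n = 4 each), a log2 change of -3.34. The change was smaller with Tfap2c depleted, by 2.00 on the log2 scale (limma adjusted p = 0.00848). The double knockdown thus kept 14.8 ± 3.87 FPKM of Abcb1a (SD, n = 4), close to the level of the GFP control. Its neighbour and paralog Abcb1b stood at 3.14 ± 0.921 FPKM in the double knockdown and 5.32 ± 0.703 FPKM in the Tfap2c knockdown (SD, n = 4 each), a log2 difference of -0.63 that missed the threshold (limma adjusted p = 0.0752). Reads shared between such paralogs could be split by the authors' counting.

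Cnn3, calponin 3, which binds actin filaments, was the most abundant of the 16. Cnn3 (chr3, 121426541 to 121458205) had 200.4, 202, 169 and 187 FPKM in the double knockdown, against 299.97, 306, 232 and 258 FPKM in the Tfap2c knockdown. The groups did not overlap, and cross B was lower than cross A in both. Cnn3 fell by 0.52 on the log2 scale (limma adjusted p = 0.0446), a call that was lost in 13 of the 16 fits that left out a library (adjusted p at most 0.149). The Tead4 knockdown held 51.9 ± 0.958 FPKM, against 149 ± 18.8 FPKM in the GFP control (SD, n = 4 each). The log2 change of -1.49 without Tfap2c depletion was larger in size, by 0.97 (limma adjusted p = 0.00851 for the difference).

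Lrp2, the endocytic receptor megalin, had 0.391, 0.294, 0.367 and 0.628 FPKM in the double knockdown, against 3.89, 2.89, 1.87 and 1.76 FPKM in the Tfap2c knockdown. All 4 double knockdown libraries were under 1 FPKM and no Tfap2c knockdown library was. Lrp2 (chr2, 69424335 to 69586029) fell by 1.31 on the log2 scale (limma adjusted p = 0.0415), and by 1.18 in the Tead4 knockdown relative to the GFP control (adjusted p = 0.00564). Dab2, the clathrin adaptor that works with megalin, stood at 13.3, 8.52, 16.9 and 28.4 FPKM in the double knockdown, against 47.2, 28.9, 54.9 and 50.6 FPKM in the Tfap2c knockdown. Its groups did not overlap either, though double knockdown B2 came within 1 FPKM of Tfap2c knockdown A2. The log2 difference of -1.47 missed the threshold (limma adjusted p = 0.0743). Without Tfap2c depletion Dab2 changed by -3.86, at 4.70 ± 3.70 FPKM in the Tead4 knockdown and 72.9 ± 13.9 FPKM in the GFP control (SD, n = 4 each), and the changes differed by 2.40 (limma adjusted p = 0.0262).

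Slc46a1, the proton-coupled folate transporter, had 35.3, 33.3, 38.2 and 39.0 FPKM in the double knockdown, against 64.0, 51.7, 52.7 and 61.5 FPKM in the Tfap2c knockdown. Its libraries were tightly grouped and separate. It fell by 0.64 on the log2 scale (limma adjusted p = 0.0295) and by 0.92 in the Tead4 knockdown relative to the GFP control (adjusted p = 0.000122). Pnpla2, which encodes adipose triglyceride lipase, fell by 0.95 (adjusted p = 0.0295), with 5.33, 3.43, 3.11 and 2.54 FPKM in the double knockdown and 10.9, 9.16, 4.55 and 7.46 FPKM in the Tfap2c knockdown. Double knockdown A1 was above Tfap2c knockdown B1, but within each cross the groups were separate. Pnpla2 changed by -0.61 in the Tead4 knockdown relative to the GFP control (adjusted p = 0.0298).

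Ier3, a stress-inducible immediate early gene, moved in the Tfap2c-depleted embryos alone. Ier3 had 1.55, 1.10, 1.76 and 0.538 FPKM in the double knockdown, against 6.60, 6.49, 9.20 and 2.83 FPKM in the Tfap2c knockdown. The groups were separate, and B2 was the lowest library in each. It fell by 1.65 on the log2 scale (limma adjusted p = 0.0257). The gene was near its floor elsewhere, at 0.324 ± 0.229 FPKM in the Tead4 knockdown and 0.218 ± 0.130 FPKM in the GFP control (SD, n = 4 each). The test of the difference between the changes gave -1.76 (limma adjusted p = 0.0425).

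The remaining 4 falls were of genes that did not pass in the Tead4 knockdown against the GFP control, although the difference between the changes did not pass for any of them (limma adjusted p between 0.0767 and 0.464). Acy3, an aminoacylase, fell by 1.05 on the log2 scale (adjusted p = 0.0295), at 0.921 ± 0.519 FPKM in the double and 2.88 ± 0.396 FPKM in the Tfap2c knockdown (SD, n = 4 each). Ehd1, which acts in recycling endosomes, fell by 0.75, at 3.00 ± 0.570 FPKM in the double and 5.79 ± 1.49 FPKM in the Tfap2c knockdown (adjusted p = 0.0446, limma, n = 4 each). Plekha1, a phosphoinositide-binding adaptor, fell by 0.64 (adjusted p = 0.0257). Cdc16, a subunit of the anaphase-promoting complex, fell by 0.49 (adjusted p = 0.0446). In none of these 4 did a double knockdown library reach the lowest Tfap2c knockdown library.

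In the double knockdown 4 genes rose, a count that was 0 with a pseudocount of 0.1. Amt, the aminomethyltransferase of the glycine cleavage system, had 30.4, 34.3, 39.0 and 40.8 FPKM in the double knockdown, against 22.7, 23.8, 22.7 and 18.2 FPKM in the Tfap2c knockdown. The groups were separate. Amt rose by 0.70 on the log2 scale (limma adjusted p = 0.0446) and by 0.67 in the Tead4 knockdown relative to the GFP control (adjusted p = 0.00459). Both groups without Tfap2c dsRNA held more Amt, at 120.2 ± 10.1 FPKM in the Tead4 knockdown and 76.3 ± 16.5 FPKM in the GFP control (SD, n = 4 each). Fam151a rose by 0.90 (adjusted p = 0.0446), with 13.7, 13.5, 23.3 and 26.5 FPKM in the double knockdown and 11.1, 6.52, 9.94 and 10.8 FPKM in the Tfap2c knockdown. It rose by 0.74 in the Tead4 knockdown relative to the GFP control (adjusted p = 0.0134). The unnamed transcript 9430091E24Rik stood at 3.69 ± 0.370 FPKM in the double knockdown and 1.66 ± 0.204 FPKM in the Tfap2c knockdown (SD, n = 4 each) and rose by 0.82 (limma adjusted p = 0.0257). Its levels in the Tead4 knockdown and the GFP control were 1.07 ± 0.151 and 1.06 ± 0.228 FPKM (SD, n = 4 each), and the changes differed by 0.81 (limma adjusted p = 0.0455). The fourth gene, Gm4340, is described with the transcripts of the 2-cell stage.

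Support for single genes was uneven across libraries. Leaving out 1 library at a time, with the highest adjusted p of those fits in brackets, Plekha1 was lost without any of the 8 libraries compared (at most 0.0796), and Ier3 without double knockdown A1, A2 or B2 or Tfap2c knockdown A1, A2 or B1 (at most 0.0796). The transcript 9430091E24Rik was lost without double knockdown A2 or B1 or Tfap2c knockdown A2 or B1 (at most 0.0796). Pnpla2 was lost without double knockdown A2, B1 or B2 or Tfap2c knockdown A1, A2 or B2, Slc46a1 without any of the 8 except Tfap2c knockdown B1, and Acy3 without any of the 8 except double knockdown A1 (each at most 0.134). Lrp2 was lost in 10 of the 16 fits, Gm4340 in 11 (both at most 0.117), Ehd1 in 13, Amt in 13, Fam151a in 14 and Cdc16 in 15 (each at most 0.149 or, for Amt, 0.137), including fits that left out a Tead4 knockdown or GFP control library and so changed only the estimate of the spread.

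The response of Tead4-sensitive genes was then read in the Tfap2c-depleted embryos. The comparisons share no library, but 1 fit over the 16 libraries gave both the same estimate of spread for each gene. Their calls are therefore not fully independent. Of the 16 genes, 9 (56.25%) also passed in the Tead4 knockdown against the GFP control, all 9 in the same direction. These 9 include Tead4, the target of the dsRNA, and are 1.29% of the 700. Of the 317 genes lower in the Tead4 knockdown, 256 (80.8%) were also lower in the double than in the Tfap2c knockdown, where 50.4% of all genes were. The median log2 change of these 317 was -0.22 for the double minus the Tfap2c knockdown, against -0.86 for the Tead4 knockdown minus the GFP control. Of the 383 genes higher in the Tead4 knockdown, 261 (68.1%) were also higher in the double knockdown, where 49.6% of all genes were. Their medians were 0.10 for the double minus the Tfap2c knockdown and 0.67 for the Tead4 knockdown minus the GFP control. Because the 700 were chosen by the second of these comparisons, its sizes are inflated. Genes chosen in 1 cross were therefore read in the other. The 141 genes lower in cross A had, in cross B, a median of -0.18 for the double minus the Tfap2c knockdown and -0.91 for the Tead4 knockdown minus the GFP control. The 53 genes lower in cross B had, in cross A, medians of -0.49 and -1.20, in the same order. The 109 genes higher in cross A had medians of 0.06 and 0.56 in cross B, and the 28 higher in cross B had 0.16 and 0.49 in cross A. Each median was thus in the same direction and smaller with Tfap2c depleted, but not each gene. Of the 141 and 53 genes lower in 1 cross, 94 and 42 were also lower for the double minus the Tfap2c knockdown in the other cross. Of the 109 genes higher in cross A, 57 were also higher for the double minus the Tfap2c knockdown in cross B, close to the 5672 of 11412 over all genes, whereas 104 were for the Tead4 knockdown minus the GFP control. Of the 28 genes higher in cross B, 20 were also higher for the double minus the Tfap2c knockdown in cross A.

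**Figure D2:**
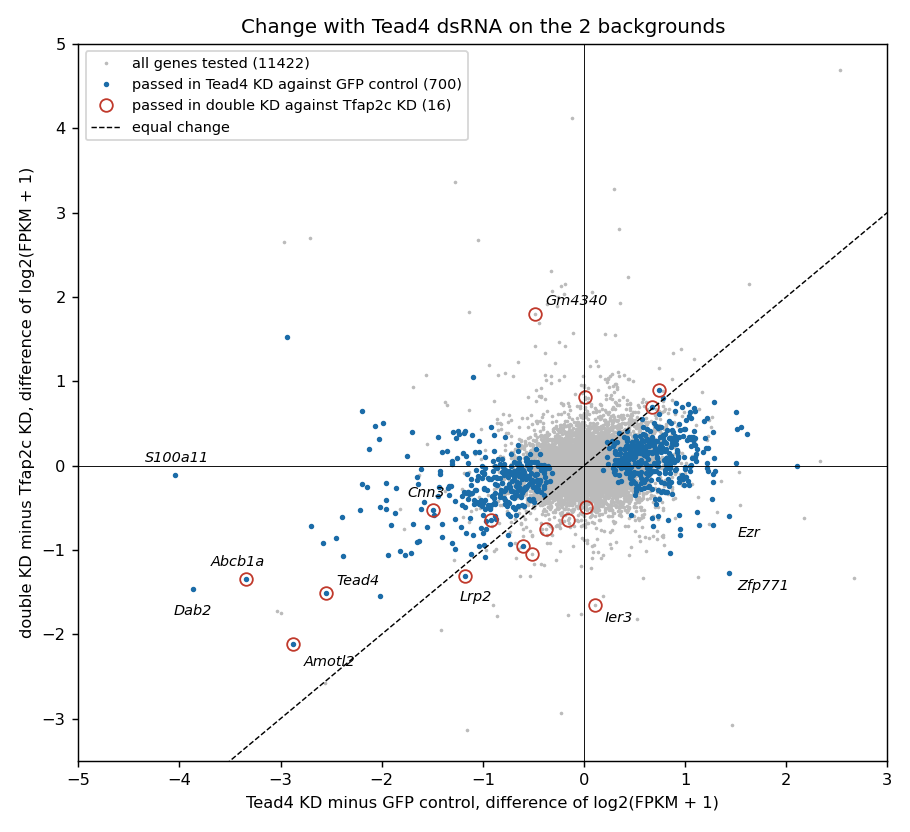
Each point is a gene. The vertical axis is the change for the double minus the Tfap2c knockdown and the horizontal axis that for the Tead4 knockdown minus the GFP control, both as differences of mean log2(FPKM + 1), and 14 genes lie outside the axes. Most of the 700 genes that passed on the horizontal axis (blue) sit nearer to 0 on the vertical axis than the dashed line of equal change, and Amotl2, Tead4 and Abcb1a are among the 16 circled genes that passed on the vertical axis.

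The difference between the changes was tested itself. It passed for 86 genes (0.753%), 44 (0.385%) with a more positive and 42 (0.368%) with a more negative change where Tfap2c was depleted, and 1369 genes (12%) had an unadjusted p under 0.05. With median-ratio rescaling the split was 52 to 19 and with quantile normalization 47 to 20. Of the 86, 75 had passed in the Tead4 knockdown against the GFP control, and in all 75 the difference had the opposite sign to that change, which their selection favours. The count ran between 12 and 113 when 1 library was left out, and fell below 60 without double knockdown A1 (17) or B1 (55), Tfap2c knockdown A1 (50), A2 (15), B1 (13) or B2 (17), Tead4 knockdown A1 (21), A2 (23), B1 (13) or B2 (53), or GFP control A1 (51), A2 (21) or B2 (12).

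S100a11, a calcium-binding protein of the cell cortex, had the largest positive difference of the named genes that passed this test. S100a11 stood at 9.71, 5.85, 20.9 and 68.9 FPKM in the double knockdown, against 14.3, 12.98, 23.7 and 27.6 FPKM in the Tfap2c knockdown. The groups overlapped, with double knockdown B2 above all others, and the log2 difference was -0.11 (limma adjusted p = 0.959, 95% interval -0.94 to 0.73). In the Tead4 knockdown it averaged 10.3 ± 10.4 FPKM, against 144 ± 90.6 FPKM in the GFP control (SD, n = 4 each). It changed there by -4.04 on the log2 scale, and the changes differed by 3.93 (limma adjusted p = 0.00851). Its Tfap2c knockdown mean was 19.7 ± 7.15 FPKM (SD, n = 4). For S100a11 the sign differed between crosses, at -0.77 in cross A and 0.56 in cross B.

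Of the steepest falls in the Tead4 knockdown, Vnn1, the pantetheinase of the cell surface, had 38.4, 18.5, 39.5 and 26.9 FPKM in the double knockdown, against 59.1, 50.5, 59.2 and 49.1 FPKM in the Tfap2c knockdown. The groups did not overlap, but the log2 difference of -0.86 missed the threshold (limma adjusted p = 0.190). Clic3, an intracellular chloride channel family member, had 5.31, 3.54, 7.09 and 8.36 FPKM in the double knockdown and 14.7, 12.6, 8.83 and 12.3 FPKM in the Tfap2c knockdown, a log2 difference of -0.92 (adjusted p = 0.190). The groups again did not overlap. The aldo-keto reductase Akr1b8 (-0.71), the PDZ protein Pdzd3 (-0.61), the adhesion molecule Mpzl2 (-0.53) and the cholesterol transfer protein Stard4 (-1.08) were all lower on the log2 scale in the double knockdown without passing (adjusted p between 0.331 and 0.522). Of these, the difference between the changes passed for Vnn1 (1.59), Clic3 (1.66), Akr1b8 (1.99), Pdzd3 (1.78) and Mpzl2 (1.69), with limma adjusted p between 0.0262 and 0.0425. For Stard4 it was 1.31 and did not pass (adjusted p = 0.308). Sh3d21 was at 0.794 ± 0.569 FPKM in the double and 0.425 ± 0.351 FPKM in the Tfap2c knockdown, near its floor in both, whereas it averaged 1.17 ± 0.345 FPKM in the Tead4 knockdown and 7.80 ± 1.15 FPKM in the GFP control (SD, n = 4 each). The small nuclear RNA Rnu1b1 was listed at 0, 4.35, 9.42 and 6.39 FPKM in the double knockdown, against 0, 0, 0 and 4.97 FPKM in the Tfap2c knockdown, and is uncertain as a multicopy gene.

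Several genes that rose in the Tead4 knockdown relative to the GFP control had a negative difference for the double minus the Tfap2c knockdown, though none of those described here passed in that comparison. Zfp771, a zinc finger protein, had 0.380, 1.302, 1.13 and 3.38 FPKM in the double knockdown, against 3.48, 4.88, 4.64 and 5.90 FPKM in the Tfap2c knockdown. The groups were barely separate, between double knockdown B2 and Tfap2c knockdown A1. The log2 difference was -1.28 (limma adjusted p = 0.0820), against 1.44 without Tfap2c depletion, and the changes differed by -2.71 (adjusted p = 0.00851). Khdc3, a subunit of the maternal complex under the egg cortex, had 19.8, 26.4, 27.6 and 51.1 FPKM in the double knockdown and 75.2, 57.8, 52.8 and 61.9 FPKM in the Tfap2c knockdown, a log2 difference of -1.04 (adjusted p = 0.0744). The corresponding change without Tfap2c depletion was 0.85 and the difference between them -1.89 (limma adjusted p = 0.0225). Ezr, which encodes ezrin, the linker between the apical membrane and actin, had 2.89, 3.49, 10.2 and 5.07 FPKM in the double knockdown, against 8.21, 7.13, 8.53 and 7.73 FPKM in the Tfap2c knockdown. Double knockdown B1 lay above every Tfap2c knockdown library and the other 3 below. The log2 difference for Ezr was -0.60 (adjusted p = 0.497), against 1.44 without Tfap2c depletion, with a difference of -2.04 (limma adjusted p = 0.0279).

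Cdkn1a, a cyclin-dependent kinase inhibitor induced by p53, had 236, 186, 518 and 529 FPKM in the double knockdown, against 266, 207, 465 and 567 FPKM in the Tfap2c knockdown. The levels followed the cross and not the group. The log2 difference was -0.07, with a 95% interval of -0.38 to 0.24, against 1.23 without Tfap2c depletion, and the changes differed by -1.29 (limma adjusted p = 0.0192). Fgf3, a growth factor ligand, had a log2 difference of 0.37 (adjusted p = 0.441), against 1.62 without Tfap2c depletion, with a difference of -1.24 (limma adjusted p = 0.0262). Both genes already stood high in the Tfap2c knockdown, Cdkn1a at 376 ± 168 FPKM against 122 ± 62.5 FPKM in the GFP control, and Fgf3 at 11.6 ± 5.36 FPKM against 4.09 ± 2.20 FPKM (SD, n = 4 each). The beta-defensin gene Defb19 was listed at 0 in all 8 libraries of the double and Tfap2c knockdowns. The stress-response gene Nupr1 (0.44), the cell cycle regulator Rgcc (0.03), the homeobox gene Rhox9 (0.63) and the acyltransferase gene Mogat2 (0.45), which rose in the Tead4 knockdown, had log2 differences that did not pass in the double minus the Tfap2c knockdown (limma adjusted p between 0.375 and 0.987).

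**Figure D3:**
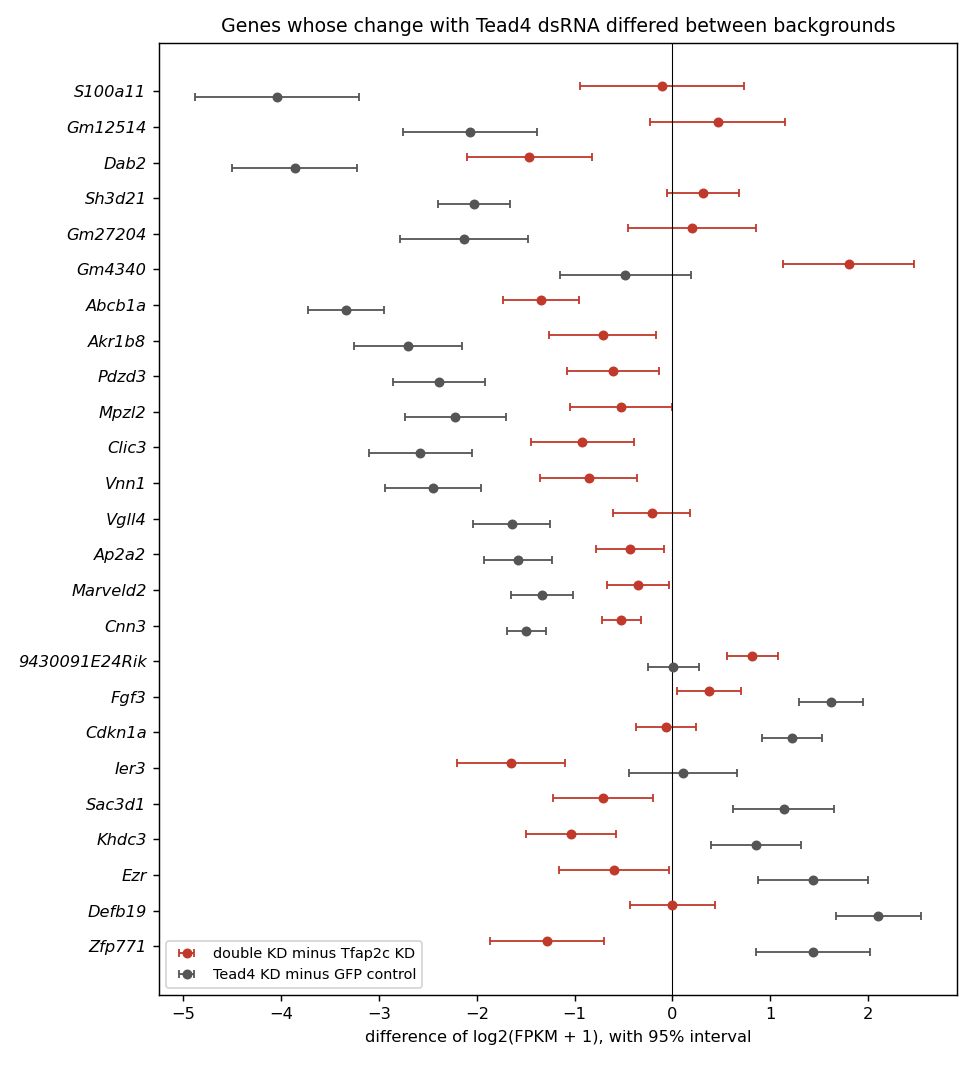
Log2 change with 95% interval for the named genes whose change differed between the backgrounds, for the double minus the Tfap2c knockdown (red, upper) and the Tead4 knockdown minus the GFP control (grey, lower). S100a11, Dab2, Abcb1a and Cnn3 lie nearer to 0 in red, Ezr, Khdc3 and Zfp771 lie on opposite sides of 0, and Ier3 and Gm4340 are away from 0 in red alone.

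The genes of the TEAD and Hippo pathway were counted by role. Of 6 TEAD factors and cofactors tested, Tead4 fell and 5 did not pass, with a median log2 change of -0.15 against -0.0016 over all genes. Vgll4, also on this list, had a log2 difference of -0.21 (limma adjusted p = 0.783). Its change without Tfap2c depletion was -1.64, and the changes differed by 1.43 (limma adjusted p = 0.0279). Tead1 stood at 4.09 ± 1.002 FPKM in the double and 5.34 ± 0.606 FPKM in the Tfap2c knockdown (SD, n = 4 each), a log2 difference of -0.33 (limma adjusted p = 0.617). The coactivators Yap1 (-0.09) and Wwtr1, which encodes TAZ (0.22), had log2 differences with adjusted p of 0.907 and 0.522. The 95% interval for Yap1 reached -0.48 to 0.29. Of 23 Hippo kinases and angiomotins tested, Amotl2 fell and 22 did not pass. With Amotl2, 6 of the 23 were lower at an unadjusted p under 0.05, against 5.2% of all genes, and 0 were higher. The kinase gene Lats2 had 2.18, 1.38, 3.76 and 2.42 FPKM in the double knockdown, against 3.50, 5.09, 6.67 and 6.24 FPKM in the Tfap2c knockdown, a log2 difference of -0.91 (limma adjusted p = 0.0744). The groups were separate within each cross. Nf2, the upstream tumour suppressor merlin, was at 9.25 ± 0.907 FPKM in the double and 11.98 ± 1.39 FPKM in the Tfap2c knockdown (SD, n = 4 each), a log2 difference of -0.34 (limma adjusted p = 0.464).

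Of 13 YAP and TEAD target genes tested, 1 passed, Amotl2, and 11 had a negative difference, with a median log2 change of -0.34. Amotl2, Lats2 and Ajuba are on this list and on the Hippo list. Ctgf, a secreted matricellular protein often used as a YAP readout, had 9.11, 8.73, 7.41 and 4.39 FPKM in the double knockdown, against 11.9, 9.03, 10.6 and 11.4 FPKM in the Tfap2c knockdown. Double knockdown A1 was just above Tfap2c knockdown A2, and the log2 difference of -0.52 did not pass (limma adjusted p = 0.577). In the Tead4 knockdown Ctgf averaged 0.149 ± 0.211 FPKM and in the GFP control 3.71 ± 1.70 FPKM (SD, n = 4 each), so the double knockdown, at 7.41 ± 2.14 FPKM, averaged more Ctgf than either group without Tfap2c dsRNA. The difference between the changes, 1.44, did not pass (adjusted p = 0.1005). Cyr61, the related matricellular gene, had 3.56, 3.01, 5.57 and 8.69 FPKM in the double knockdown and 3.19, 6.81, 18.3 and 11.8 FPKM in the Tfap2c knockdown, a log2 difference of -0.70 (limma adjusted p = 0.463). The LIM protein gene Ajuba had 7.31 ± 0.900 FPKM in the double and 9.57 ± 1.03 FPKM in the Tfap2c knockdown (SD, n = 4 each), a log2 difference of -0.35 (adjusted p = 0.351).

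Of 29 trophectoderm genes tested, 2 passed, Tead4 and Lrp2, both lower, and the median log2 change was -0.09. The keratin gene Krt18, an early marker of the outer epithelium, had 12.2, 6.61, 4.79 and 16.1 FPKM in the double knockdown, against 23.3, 11.8, 19.5 and 25.1 FPKM in the Tfap2c knockdown. Double knockdown A1 and B2 lay above Tfap2c knockdown A2, and the log2 difference of -1.02 did not pass (limma adjusted p = 0.342). Its partner Krt8 was at 12.6 ± 1.63 FPKM in the double and 16.3 ± 1.56 FPKM in the Tfap2c knockdown (SD, n = 4 each, log2 difference -0.35, limma adjusted p = 0.791). The transcription factor gene Gata3 had a log2 difference of -0.46 (adjusted p = 0.692), at -0.94 in cross A and 0.01 in cross B. Cdx2, the later trophectoderm master gene, did not exceed 0.030 FPKM in any double knockdown library or 0.116 FPKM in any Tfap2c knockdown library, so no change of it was detectable at this stage.

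Of 37 pluripotency genes tested, 0 passed by limma. In that list 9 were higher and 1 was lower at an unadjusted p under 0.05, against 4.32% higher and 5.2% lower over all genes, and the median log2 change was 0.10. The lean was in cross B, with a median of 0.27 and 30 of the 37 positive, whereas cross A had a median of 0.0041 and 19 positive. Nanog, a core factor of the inner cells, had 11.8, 8.29, 32.0 and 25.6 FPKM in the double knockdown, against 6.25, 5.48, 11.9 and 10.8 FPKM in the Tfap2c knockdown. Within each cross the double knockdown libraries were higher, while across crosses the groups overlapped. The log2 difference was 0.97 (95% interval 0.24 to 1.69, limma adjusted p = 0.346), and the double knockdown remained under the 26.9 ± 1.21 FPKM of the GFP control on average, at 19.4 ± 11.2 FPKM (SD, n = 4 each). Pou5f1 had 11.8, 10.8, 13.3 and 30.5 FPKM in the double knockdown, against 20.3, 21.2, 11.6 and 16.6 FPKM in the Tfap2c knockdown. Its sign differed between the crosses, at -0.83 in cross A and 0.52 in cross B, and double knockdown B2 was the highest library. The co-receptor gene Tdgf1 was at 15.6 ± 3.51 FPKM in the double and 10.49 ± 3.38 FPKM in the Tfap2c knockdown (SD, n = 4 each, log2 difference 0.55, limma adjusted p = 0.498).

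In the other lists few or no genes passed. Cnn3 was the 1 call among 51 actin regulators, Abcb1a among 15 ABC and multidrug transporters, and Lrp2 among 45 endocytosis and lysosome genes and among 11 primitive endoderm genes. In 24 of the 33 lists 0 genes passed by limma, with 0 of 20 polarity genes, 0 of 21 junction genes, 0 of 23 p53 targets and 0 of 11 interferon and dsRNA response genes among them. At an unadjusted p under 0.05 those 4 lists held 2, 1, 1 and 1 genes. Some lists leaned without a call. Of 88 cytosolic ribosomal protein genes 70 were negative, but 7 were positive in cross A and 54 in cross B. Nuclear respiratory genes were positive for 15 of 90 in cross A and 63 in cross B. Keratins and desmosomes had a median log2 change of -0.25 (6 of 7 negative), and interferon and dsRNA response genes one of 0.21 (8 of 11 positive). The polarity gene Pard6b had a log2 difference of 0.09 (adjusted p = 0.915) and the small GTPase gene Rhoa, at 176 ± 9.25 FPKM in the double and 175 ± 3.92 FPKM in the Tfap2c knockdown (SD, n = 4 each), one of 0.01, with a 95% interval of -0.16 to 0.17. The protease gene Ctsb, a lysosomal cathepsin, was at 98.4 ± 4.13 FPKM in the double and 77.6 ± 12.7 FPKM in the Tfap2c knockdown (SD, n = 4 each), a log2 difference of 0.35 (limma adjusted p = 0.161).

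**Figure D4:**
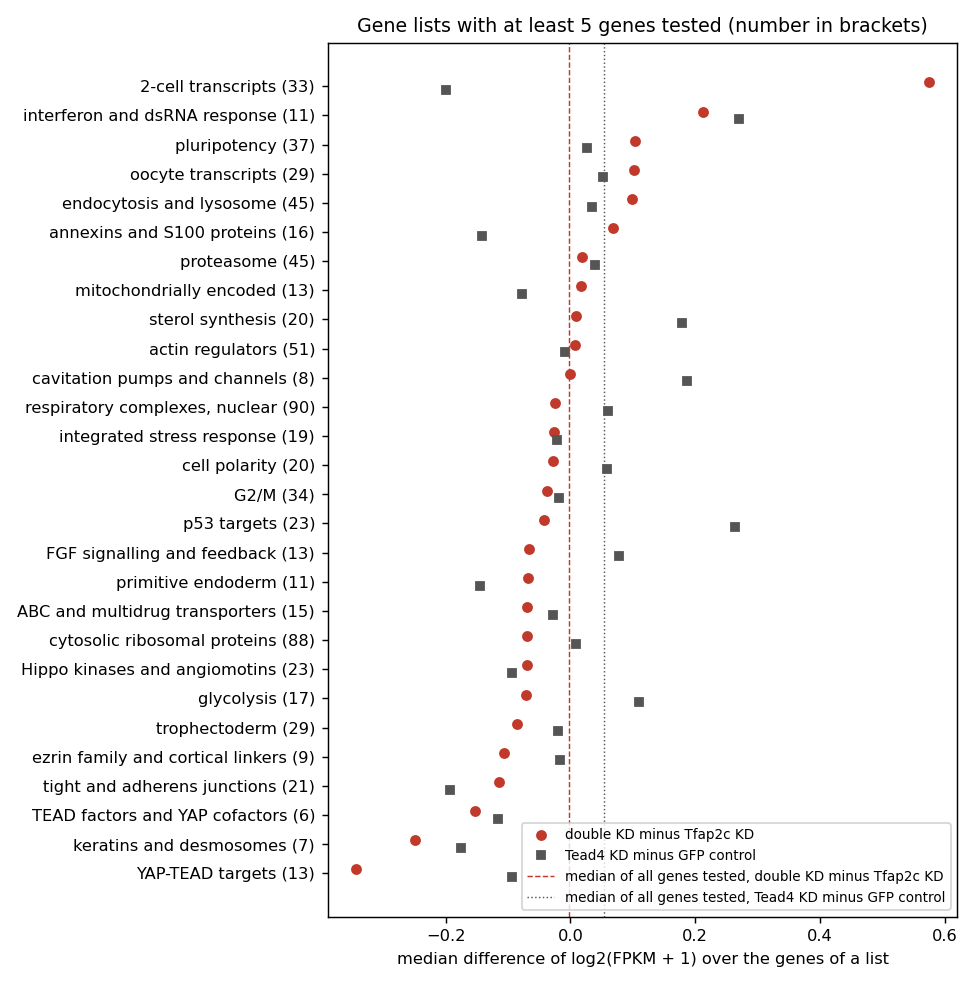
Median log2 change over the genes of each list with at least 5 genes tested, for the double minus the Tfap2c knockdown (circles) and the Tead4 knockdown minus the GFP control (squares), with the medians of all genes as dashed and dotted lines. The 2-cell transcripts stand at 0.57 and the YAP and TEAD targets at -0.34 for the double minus the Tfap2c knockdown, and the other medians lie between them.

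Transcripts of the 2-cell stage, which are made in the burst of transcription at genome activation, had the highest list median for the double minus the Tfap2c knockdown, at 0.57. Of 33 tested, 25 were positive and 12 had an unadjusted p under 0.05, all higher, against 4.32% of all genes, and 1 of these 12 passed. That gene, Gm4340, had 3.73, 4.32, 5.67 and 4.73 FPKM in the double knockdown, against 0, 0.118, 0.688 and 2.44 FPKM in the Tfap2c knockdown. The groups were separate. It rose by 1.80 on the log2 scale (limma adjusted p = 0.0415), but it has near-identical copies, so its reads are uncertain. Its level in the GFP control was 2.57 ± 0.984 FPKM (SD, n = 4), and the changes differed by 2.28 (limma adjusted p = 0.0334).

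Several others of the list were high in the cross B libraries of the double knockdown. The median over the list was 1.04 within cross B and 0.17 within cross A, although 22 of the 33 genes were positive in cross B and 24 in cross A. Zscan4f, of a zinc finger family that marks 2-cell embryos, had 2.00, 0.309, 125 and 5.24 FPKM in the double knockdown, against 0.660, 0.141, 0.269 and 1.10 FPKM in the Tfap2c knockdown, so double knockdown B1 stood far above every other library. Zscan4c likewise had 0.787, 0.254, 67.0 and 2.28 FPKM in the double knockdown, against 0.153, 0.0599, 0.210 and 0.204 FPKM in the Tfap2c knockdown. Zscan4d had 0.590, 0.535, 24.6 and 8.00 FPKM in the double knockdown, against 0.417, 0.169, 0.838 and 1.49 FPKM in the Tfap2c knockdown. Their log2 differences of 2.31, 2.03 and 1.55 did not pass (limma adjusted p between 0.350 and 0.415), and the family is of near-identical copies.

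Gm2022 had 1.79, 0.864, 56.2 and 27.4 FPKM in the double knockdown, against 0.440, 1.19, 1.73 and 2.15 FPKM in the Tfap2c knockdown. Gm5662 had 4.11, 1.66, 124 and 74.8 FPKM in the double knockdown, against 3.03, 3.95, 9.61 and 10.9 FPKM in the Tfap2c knockdown. For both genes the 2 cross B libraries of the double knockdown were high and the cross A libraries were not. In cross B alone Gm2022 rose by 3.78 and Gm5662 by 3.12 on the log2 scale (limma adjusted p = 0.0246 and 0.0220), whereas over both crosses neither passed (0.222 and 0.397). The difference between crosses was 3.42 for Gm2022 and 3.39 for Gm5662, and missed the threshold (limma adjusted p = 0.0608 for both). Zfp352, at 4.29, 2.44, 36.0 and 12.3 FPKM in the double knockdown and 0.678, 0.727, 11.2 and 8.54 FPKM in the Tfap2c knockdown, was higher with Tead4 dsRNA within each cross (log2 difference 1.18, limma adjusted p = 0.136). Summed over the 39 listed genes in the table, 2-cell transcripts stood between 2985 and 3760 FPKM in the double and between 2723 and 3079 FPKM in the Tfap2c knockdown. The GFP control sums, between 2937 and 3343 FPKM, overlapped both. The list median for the Tead4 knockdown minus the GFP control was -0.20. The oocyte transcripts, which the egg supplies, overlapped as well, at sums between 6337 and 7341 FPKM in the double and between 5886 and 7113 FPKM in the Tfap2c knockdown.

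**Figure D5:**
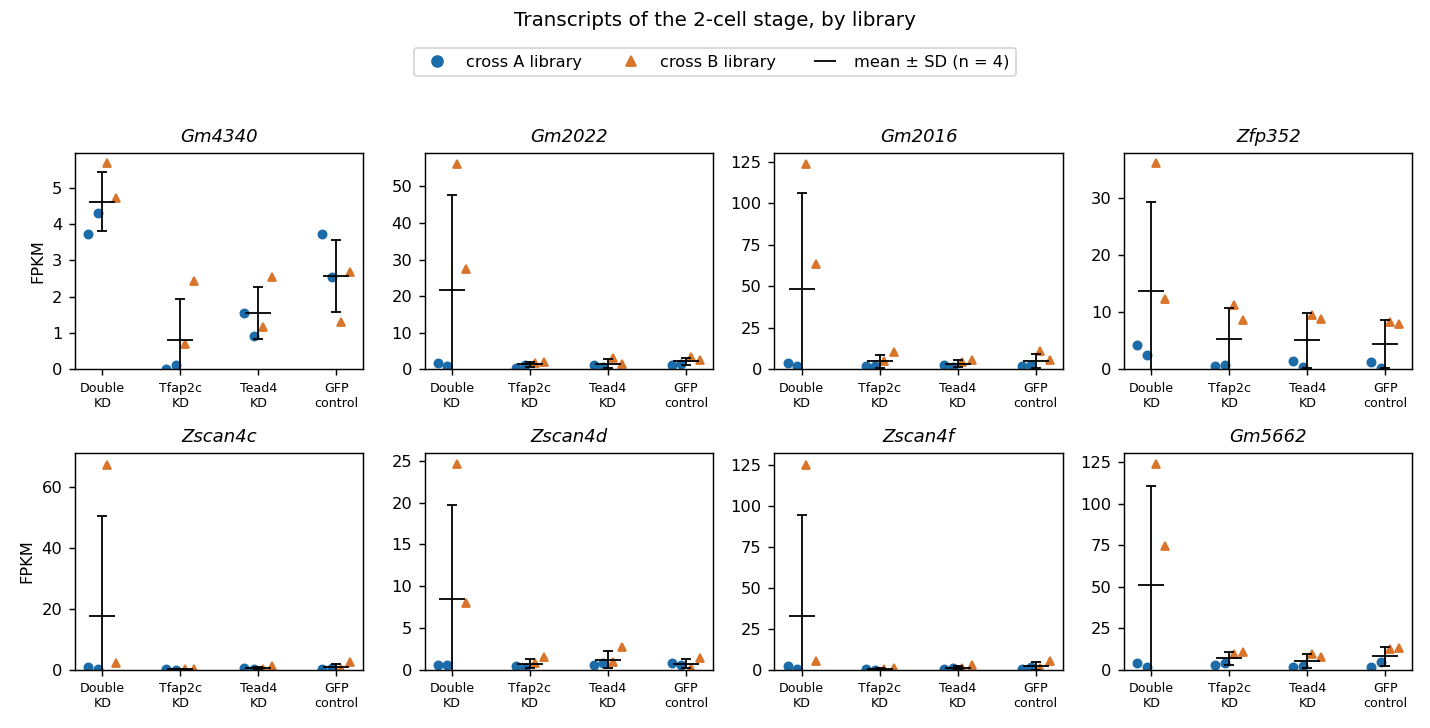
FPKM of 8 transcripts of the 2-cell stage by library in the 4 groups (circles cross A, triangles cross B, mean ± SD with n = 4, bars cut at 0). Double knockdown B1 is the highest of the 16 libraries in each panel, and double knockdown B2 is second for Gm4340, Gm2022, Gm2016, Zfp352, Zscan4d and Gm5662.

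The crosses were compared over all genes. For 0 genes did the change between the double and the Tfap2c knockdown differ between the crosses by limma, with 1320 genes (11.6%) at an unadjusted p under 0.05, and 10 genes passed with a pseudocount of 5. Within cross A alone 2 genes passed, Amotl2 (-1.98) and the ribosomal pseudogene Rpl36-ps10 (-2.27). Within cross B alone 13 passed, 10 higher and 3 lower, of which Amotl2 (-2.26) was the 1 shared with the fit over both crosses. Of the 10 higher, 8 lie in a single stretch of chr12, between 87514316 and 88274497, Gm2022 and Gm5662 among them, with log2 changes between 2.38 and 3.80 in cross B (limma adjusted p between 0.0220 and 0.0432). This stretch was singled out after its values were seen. Of the 19 tested genes within it, 18 had a positive difference in cross B, and the median log2 change was 2.53 in cross B, against 0.31 in cross A. These gene models are near-identical copies, so their reads may be shared and they are not independent of each other. The 10 also included Id3, an inhibitor of helix-loop-helix factors, named after its values were seen. Id3 had 95.2, 59.1, 323 and 322 FPKM in the double knockdown, against 86.5, 53.7, 117 and 122 FPKM in the Tfap2c knockdown. In cross A the groups were close and in cross B they were far apart. The log2 change of Id3 was 1.42 in cross B (limma adjusted p = 0.0412) and 0.14 in cross A, and the difference of 1.29 between crosses did not pass (adjusted p = 0.247).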

How the data were processed

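Poly(A) RNA from pools of zona-free 8-cell embryos grown in KSOM medium was reverse transcribed with SuperScript II, amplified by Smart-seq2 and made into libraries with a TruePrep kit, per the labels' protocols. The submitters' processing notes name CASAVA, Trim Galore, STAR, Cufflinks and the mm10 genome. Versions, annotation and any use of strand: not given in the sources used here. Per gene, the deposited table holds FPKM, which the authors scaled to gene length and library size. Read counts were not used here, so absolute depth is unknown. Lines of 59 repeated identifiers were summed, which left 43437 genes, and 27 names turned into dates were restored.

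All log2 values were computed here from the deposited FPKM with a pseudocount of 1. The model was limma 3.58.1 in R 4.3.3 (lmFit, eBayes with trend) over 16 libraries, and each comparison was adjusted over 11422 genes. The script was tested on simulated data. Tead4, Tfap2c, the number of genes at 1 FPKM and the mitochondrial share were also tested by exact permutation, and no other gene was. Figures used matplotlib 3.10.9. The genes named are Tead4, Tfap2c, a set of pathway genes, those that passed, the steepest Tead4 knockdown changes and differences between backgrounds with a mean of at least 5 FPKM in 1 group, and up to 3 genes by lowest p from each of 33 lists. Genes of the 2-cell list and those that passed in 1 cross were added after their values were seen, as were Nf2, Tdgf1, Ctsb and the cross values. Members and lists were chosen with earlier results of these data known. Alternatives were the pseudocount, the filter, scaling, the libraries and covariates fitted, single crosses, each library left out and, added after seeing the data, array quality weights. Gene locations are RefSeq's, GRCm38.p6. A comparison of motif shares between gene sets was void, because 7536 of 11412 tested symbols (under 80%) had a promoter.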

Additional observations from a re-analysis of the deposited data

Results flagged for a closer look

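The test of the difference between the change with Tead4 dsRNA on Tfap2c depletion and the change without it passed for 86 genes. Among the named genes the difference was positive for S100a11 (3.932), Gm12514 (2.533), Dab2 (2.397), Sh3d21 (2.344), Gm27204 (2.330), Gm4340 (2.282), Abcb1a (1.995), Akr1b8 (1.991), Pdzd3 (1.781), Mpzl2 (1.694), Clic3 (1.660), Vnn1 (1.593), Vgll4 (1.431), Ap2a2 (1.143), Marveld2 (0.9781), Cnn3 (0.9714) and 9430091E24Rik (0.8076). It was negative for Zfp771 (-2.715), Defb19 (-2.107), Ezr (-2.036), Khdc3 (-1.892), Sac3d1 (-1.845), Ier3 (-1.761), Cdkn1a (-1.295) and Fgf3 (-1.243). All are on the log2 scale.

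A single library lay far from the rest of its group in 3 of 162 groups of values, where chance flags about 1 in 20. Rnu1b1 was at 4.974 FPKM in Tfap2c knockdown B2 and at 0 in the other 3 libraries. Pard6b was at 3.214 FPKM in double knockdown B2, against values between 2.058 and 2.214 in the others. Marveld2 was at 2.129 FPKM in Tfap2c knockdown A1, against values between 2.716 and 2.847 in the others.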

How the results depend on the processing

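For the double minus the Tfap2c knockdown, the 16 genes became 4 with a pseudocount of 0.1, 31 with a pseudocount of 5, 4 with no filter, 2 with only the libraries compared, 3 without cross as a covariate, 8 with the replicate number as a block (replicate block), 2 in cross A alone and 25 with array quality weights, and 1 to 22 with 1 library left out. With only the libraries compared, Amotl2 alone of the 16 still passed. The cause of these shifts was not tested. The 700 genes of the Tead4 knockdown against the GFP control became 279 without cross, 250 in cross A and 81 in cross B, and 407 to 753 with 1 library left out. The 86 genes that differed between backgrounds became 14 with no filter, 7 without cross, 36 under the replicate block, 2 in cross A and 3 in cross B, and 12 to 113 with 1 library left out. The 0 genes that differed between crosses became 10 with a pseudocount of 5, 39 with no filter and 8 under median-ratio rescaling and under quantile normalization, and 0 to 12 with 1 library left out.

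The log2 change of Tead4 was -1.515 with no filter, with only the libraries compared and without cross, -1.599 in cross A and -1.432 in cross B, no longer passing in each, and ran between -1.694 and -1.346 with 1 library left out. That of Tfap2c was -0.07404 in cross B and ran between -0.04339 and 0.1111 with 1 library left out. Signs turned, none with a call, in cross A for Mogat2 (-0.06757), Gm27204 (-0.02254), Yap1 (0.143) and Rhoa (-0.05072), in cross B for S100a11 (0.5556), Mpzl2 (0.02099), Rgcc (-0.1509), Gata3 (0.01379), Pou5f1 (0.5166) and Cdkn1a (0.02728), and with quality weights for Rhoa (-0.0072). With 1 library left out, ranges that held both signs were -0.09768 to 0.2196 for Rgcc, -0.0282 to 0.04915 for Rhoa, -0.4687 to 0.1402 for S100a11, -0.1452 to 0.02239 for Cdkn1a, -0.2321 to 0.00757 for Yap1, -0.06219 to 0.215 for Pard6b and -0.09767 to 0.4018 for Gm27204.

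With 4 pools a group, unknown depth and near-identical copies among the 2-cell genes, small changes were mostly not detectable. Same-numbered double and Tfap2c knockdown libraries share only a number, with correlations of their deviations of 0.0207 among cross A libraries and -0.165 among cross B libraries, so the replicate block is an alternative and not a pairing.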
